A study of Mus musculus with 16 samples.

Results

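Tmem119, Olfml3, Sparc, Golm1, Cst3, Selplg, Rnase4, Gpr84, Crybb1 and Ltc4s are 10 genes taken here as markers of microglia. Whether these genes are confined to microglia was not tested. They were taken by symbol from the 24015 rows of a deposited table of normalized counts, and all 10 had a row. They are the surface, secreted, Golgi, enzyme and crystallin genes of the microglial signature, without its receptors for nucleotides and chemokines and its transcription factors. Microglia of the hippocampus were compared between 6 samples from mice aged 20 months, called aged here, and 6 samples from mice aged 3 months, called young. The strain was C57BL/6 in all young samples and in aged samples 1 to 4, while the libraries of aged 5 and aged 6 carry C57BL/7, C57BL/8 and C57BL/9, which could not be settled. No other treatment or allele was named in either age. The sort gate took live CD11b+ CD45lo cells, and SmartSeq v4 cDNA was tagmented with Nextera XT, so reads carry no strand. The labels do not tell single mice from pools, and the p-values cover only the spread among the samples as deposited, which may in part be technical.

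Microglia are the resident macrophages of the brain parenchyma, and they keep a characteristic expression programme under the influence of TGF-beta, CSF1R signalling and transcription factors such as PU.1 and SALL1. Part of this programme consists of proteins placed at the cell surface or released around the cell, among them matrix proteins and protease inhibitors. In disease and after injury the programme is often lowered while inflammatory genes are raised, and genes of the programme are therefore used to judge whether microglia keep their identity. The comparison of the ages asks how far their transcripts differ in the aged hippocampus.

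In microglia of the aged hippocampus no transcript of the group passed the test for a difference with age, and the fitted ratios of aged to young lay between 0.845 for Olfml3 and 1.13 for Crybb1. Of the 10 genes, 0 were called higher and 0 lower (limma on log2 of the normalized count plus 1, adjusted p under 0.05), where 1.73% of the 11579 genes tested were called, 1.27% higher and 0.458% lower. At an unadjusted p under 0.05 stood 2 of the 10, Sparc and Olfml3, both lower in aged samples, against 10.8% of all genes tested. On the reads recovered from 8 samples 0 of the 10 were called by edgeR, which called 0.786% of all genes tested (0.656% higher, 0.13% lower), and 0 by DESeq2, which called 2.03% (1.59% higher, 0.441% lower). The ages overlapped in all 10 genes, while 1.87% of the genes tested had ages that did not overlap. The median log2 fold change of the 10 genes was -0.07, that of all genes tested 0.0016, and the median absolute log2 fold change was 0.12 and 0.10 in these sets. In bulk samples such as these, fewer cells of a type and less RNA per cell cannot be told apart.

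**Figure D1:**
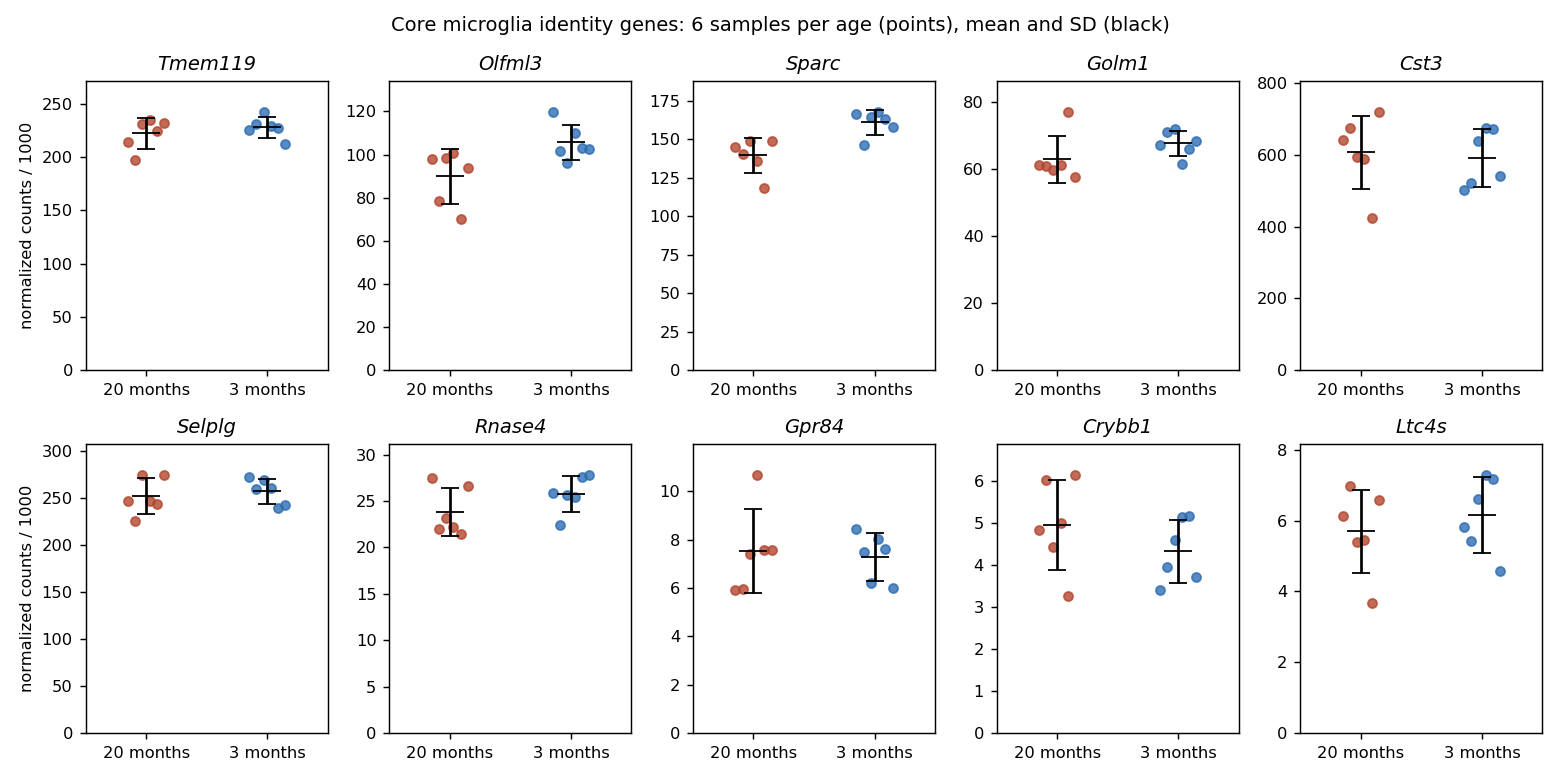
Normalized counts divided by 1000 (linear axes from 0) of the 10 core identity genes in 6 aged (20 months, red, left) and 6 young (3 months, blue, right) samples, with mean and SD in black. The ages overlap in every panel, and in Sparc 4 of the 6 aged samples lie below all young samples.

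Tmem119, a transmembrane protein used to tell microglia from infiltrating macrophages, had 196778, 227611 and 235026 normalized counts as lowest, median and highest of the aged samples, and 211774, 228183 and 242122 in the young samples. Aged 2 was the lowest of all 12 samples and young 3 the highest, and the other samples of both ages lay among each other. The ratio of aged to young was 0.975, with a 95% interval from 0.888 to 1.07 (limma adjusted p = 0.915), and the coefficient of variation was 6.49% in aged and 4.30% in young samples. Selplg encodes PSGL-1, the mucin-like ligand of the selectins, and its lowest, median and highest values were 225330, 246791 and 274727 in aged and 239420, 260021 and 272183 in young samples. Aged 2 was lowest and aged 6 highest, so the aged samples enclosed all young samples. The aged to young ratio was 0.978, with an interval from 0.886 to 1.08 (limma adjusted p = 0.933).

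Gpr84, a receptor for medium-chain fatty acids that myeloid cells raise on inflammatory stimulation, had 5896, 7469 and 10680 normalized counts in aged and 5985, 7549 and 8420 in young samples. A single sample, aged 4, stood above all others, while aged 1 and aged 2 lay below all young samples. The log2 fold change was 0.03, with an interval from -0.24 to 0.29 (limma adjusted p = 0.973), and it was -0.08 without aged 4. In aged 4 the summed level of neutrophil markers was also the highest, at 10.2 CPM (their normalized counts scaled to the total of the sample) against 0.266 to 1.44 CPM in the other aged samples and 0.190 to 1.33 CPM in the young samples, and that of dissociation response genes was 741 CPM against 499.9 to 602 CPM in the other aged and 458 to 715 CPM in the young samples. Of the neutrophil markers 5 of 6 had a row and 0 reached the expression filter. The part of either in the Gpr84 value was not tested.

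Among the secreted proteins, Sparc and Olfml3 had the smallest p-values of the group. Sparc, a matricellular glycoprotein that binds collagen and modulates cell adhesion, had 118336, 142643 and 149159 normalized counts in aged samples and 146154, 164021 and 167768 in young samples. Of the aged samples 4 lay below every young sample, and the overlap came from young 2, the lowest young sample, with aged 3 and aged 6. The mean was 139559 ± 11581 in aged and 161028 ± 8083 in young samples (SD, n = 6 each). The ratio was 0.865, with an interval from 0.782 to 0.957 (limma adjusted p = 0.191). Olfml3, a secreted olfactomedin-domain glycoprotein, had 70145, 95777 and 100646 normalized counts in aged and 96269, 102938 and 119712 in young samples. Aged 5 and aged 2 were far below the other aged samples, which lay near the lower young values. The mean was 89866 ± 12604 in aged and 105630 ± 8186 in young samples (SD, n = 6 each). The ratio was 0.845, with an interval from 0.741 to 0.965 (limma adjusted p = 0.279).

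Cst3 encodes cystatin C, an inhibitor of cysteine cathepsins, and it was the most abundant transcript of the group, with 1.57% to 2.71% of all normalized counts in aged and 1.79% to 2.56% in young samples. It had 423430, 617543 and 719173 normalized counts in aged samples and 500692, 589097 and 675698 in young samples. Aged 5 was the lowest and aged 6 the highest of all 12 samples, so the aged samples again enclosed the young ones. The aged to young ratio was 1.02, with an interval from 0.858 to 1.21 (limma adjusted p = 0.964), and its log2 value of 0.03 changed sign in 8 of 26 alternatives. Rnase4, a secreted ribonuclease of the pancreatic ribonuclease family, had 21399, 22679 and 27424 normalized counts in aged and 22426, 25730 and 27824 in young samples. Aged 1 and aged 6 stood among the higher young samples and the other aged samples were low. The ratio was 0.920, with an interval from 0.823 to 1.03 (limma adjusted p = 0.671).

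Golm1 encodes a Golgi membrane protein that is also shed from cells. It had 57497, 60965 and 76933 normalized counts in aged samples and 61519, 67623 and 71939 in young samples. Of the aged samples 5 lay below every young sample, while the sixth, aged 5, lay above every young sample. The aged to young ratio was 0.927, with an interval from 0.834 to 1.03 (limma adjusted p = 0.699), and without aged 5 the log2 fold change was -0.17 against -0.11 with it (limma adjusted p = 0.191 without it).

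Ltc4s encodes leukotriene C4 synthase, which joins glutathione to leukotriene A4. It had 3684, 5782 and 6987 normalized counts in aged and 4586, 6209 and 7296 in young samples, and aged 5 was the lowest of all. The ratio was 0.920, with an interval from 0.749 to 1.13 (limma adjusted p = 0.865). Crybb1 encodes a beta-crystallin known as a structural protein of the lens and is also transcribed in microglia. Its values were 3255, 4920 and 6151 normalized counts in aged and 3394, 4279 and 5162 in young samples. Aged 5 was again the lowest, and aged 2 and aged 6 stood above all young samples. The ratio was 1.13, with an interval from 0.922 to 1.39 (limma adjusted p = 0.765). Its log2 fold change of 0.18 became 0.295 without aged 5, 0.111 without aged 6, 0.114 without young 1 and 0.117 without aged 2, and it passed in none of these fits.

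Per kilobase of the principal transcript, the 10 genes spanned a wide range. Cst3 averaged 696654 normalized counts per kilobase over the 12 samples, followed by Selplg with 137237, Tmem119 with 100308 and Sparc with 65345, and the samples' ranges of these 4 did not overlap with the next gene in the order. Next came Olfml3 with 17886, Golm1 with 16496 and Rnase4 with 16328 per kilobase, each overlapping with its neighbour in this run. Ltc4s with 9132, Crybb1 with 5260 and Gpr84 with 4287 per kilobase followed, apart from Rnase4 but again overlapping with each other in sequence. With the length of all exons in place of that transcript, Tmem119 came before Selplg and Rnase4 before Golm1 in the aged means. In the shallowest sample, young 1, the least counted of the 10 genes, Crybb1, had 1382 reads, a counting error of 2.69% if each read is counted as independent, which amplified cDNA copies are not. The coefficient of variation of Crybb1 between samples was 21.7% in aged and 17.3% in young samples. Together the 10 genes made up 4.42% to 5.91% of all normalized counts in aged and 4.99% to 5.87% in young samples.

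The samples differed within an age in a pattern shared by Cst3, Crybb1 and Ltc4s. Each gene was taken as its deviation from the mean of its age on the log2 scale, and 45 pairs of the 10 genes were compared over 12 samples with 100000 permutations within age. Of these pairs 3 passed by Pearson's r after Benjamini-Hochberg adjustment. Cst3 and Crybb1 had r = 0.96 (permutation p = 0.00012, adjusted 0.0054) and rho = 0.92 (permutation p = 0.00023, adjusted 0.010), and r was 0.91 without aged 5 and young 1, the samples farthest from the median of Cst3. Cst3 and Ltc4s had r = 0.92 (permutation p = 0.00075, adjusted 0.011) and rho = 0.90 (permutation p = 0.0011, adjusted 0.017), with 0.91 without the same samples. Crybb1 and Ltc4s had r = 0.91 (permutation p = 0.00056, adjusted 0.011) and rho = 0.90 (permutation p = 0.00064, adjusted 0.014), with r at 0.91 without aged 5 and young 1. In this trio aged 5 was lowest and aged 2 and aged 6 were high, and among young samples young 3, young 4 and young 5 were high and young 1, young 2 and young 6 low.

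**Figure D2:**
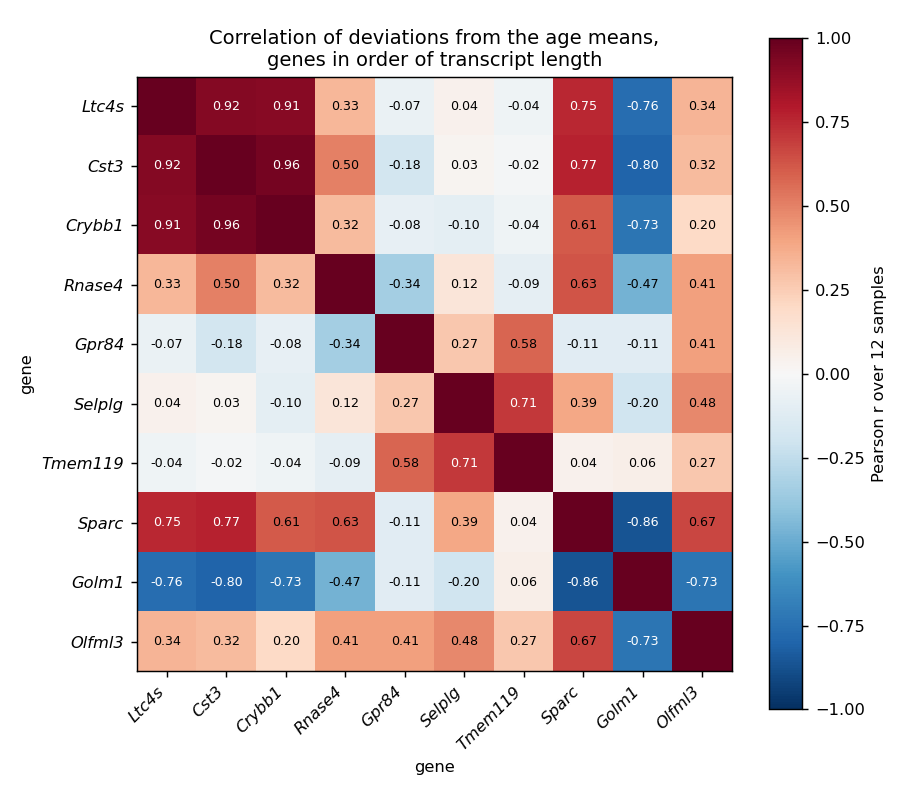
Pearson r between the deviations of the 10 genes from their age means over 12 samples, with genes in order of transcript length (colour from -1 to 1). Ltc4s, Cst3 and Crybb1 form a block with r from 0.91 to 0.96, and Golm1 is negative with Cst3 (-0.80) and Sparc (-0.86).

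Golm1 ran the other way. Its r was -0.86 with Sparc (permutation p = 0.0054, adjusted 0.061) with a rho of -0.74 (permutation p = 0.0046, adjusted 0.047). This r was -0.64 without aged 5 and -0.49 without aged 5 and young 2, weaker but of the same sign. With Cst3 its r was -0.80 (permutation p = 0.020, adjusted 0.094) and its rho -0.76 (permutation p = 0.0053, adjusted 0.047), with r at -0.77 without aged 5 and young 3 and -0.54 without aged 5. By rho 5 of the 45 pairs passed, the 3 of the trio and these.

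Cst3, Crybb1 and Ltc4s are the members of the group whose principal transcript is under 1000 bases, with 860, 882 and 649 bases, while the next shortest, Rnase4, has 1518. The level of short transcripts in each sample was therefore measured on other genes, as the median centred log2 value of the 680 tested genes under 1000 bases that are not in the group, a measure chosen after the data were seen. It was 0.04 ± 0.24 in aged and -0.03 ± 0.18 in young samples (SD, n = 6 each; exact two-sided permutation p = 0.571), and aged 5 was lowest, at -0.38. Cst3 followed it with r = 0.99 (permutation p = 9e-05, adjusted 0.0005) and rho = 0.94 (permutation p = 0.00021, adjusted 0.0007), and r was 0.98 without aged 5 and young 1. Crybb1 had r = 0.98 and rho = 0.97 (permutation p = 0.00010 and 0.00012, adjusted 0.0005 and 0.0007), and 0.96 without those samples. For Ltc4s r and rho were both 0.94 (permutation p = 0.00024 and 0.00014, adjusted 0.0008 and 0.0007), with r at 0.94 without them. Among the other 7 genes 0 passed by r. Sparc had r = 0.72 and rho = 0.46 (permutation p = 0.027 and 0.17, adjusted 0.054 and 0.34), with r at 0.60 without those samples. Golm1 had r = -0.77 and rho = -0.68 (permutation p = 0.021 and 0.018, adjusted 0.052 and 0.044), with r at -0.55 without them. Tmem119 had r = -0.07 and rho = -0.04 (permutation p = 0.84 and 0.91, adjusted 0.88 and 0.91).

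**Figure D3:**
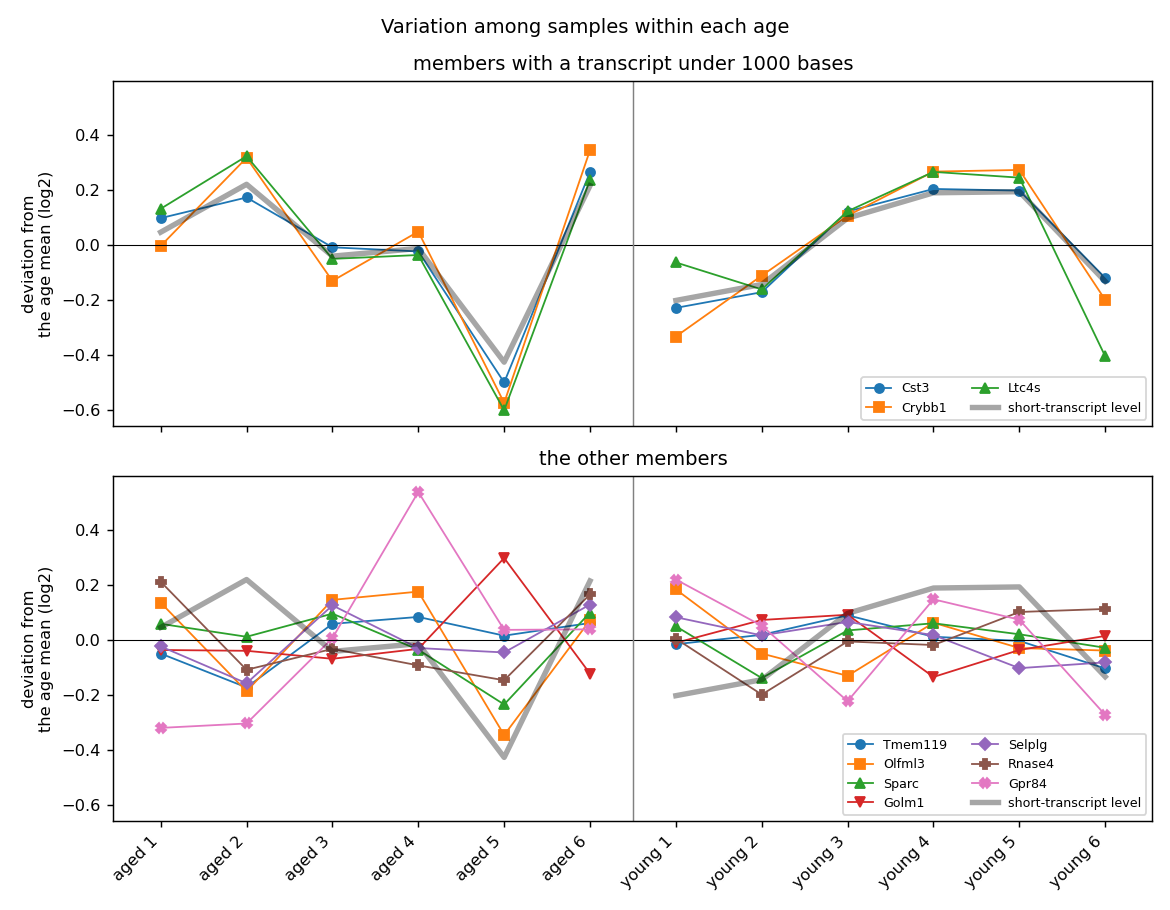
Deviation of each gene from the mean of its age (log2) in the 12 samples, for the genes with a transcript under 1000 bases (top) and the others (bottom), with the short-transcript level of non-member genes as a thick grey line. Cst3, Crybb1 and Ltc4s lie along the grey line, with their lowest point in aged 5, while Golm1 is highest there.

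Across all other tested genes the samples differed most in the class of shortest transcripts and least from 2000 to below 4000 bases. In aged 5 the median centred log2 value was -0.38 under 1000 bases, -0.13 from 1000 to below 2000, 0.03 from 2000 to below 4000, 0.16 from 4000 to below 8000 and 0.05 from 8000 bases. In aged 6 it was 0.26, 0.14, 0.02, -0.14 and -0.15 in the same classes. Not every sample followed such an order, and aged 2 was above 0 at both ends, at 0.26, 0.02, -0.05, 0.04 and 0.14. The GC content of the transcripts was 57.2% in Cst3, 61.8% in Crybb1 and 60.7% in Ltc4s, and 59.1% in Tmem119 and 58.6% in Selplg lay between these.

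**Figure D4:**
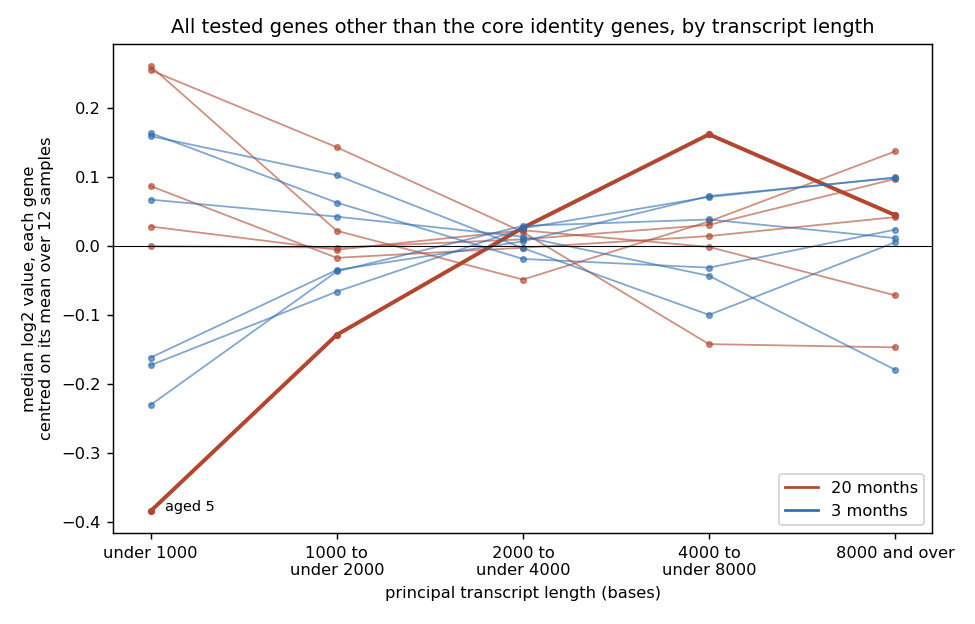
Median centred log2 value of all tested genes outside the group, by class of principal transcript length (bases), with a line for each aged (red) and young (blue) sample. Samples spread from -0.38 (aged 5, thick line) to 0.26 under 1000 bases and meet near 0 from 2000 to below 4000 bases.

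With the short-transcript level as a covariate, a fit chosen after the data were seen, the age differences of Cst3, Crybb1 and Ltc4s had narrower intervals. That follows from their close correlation with the covariate in the same samples and is not a separate result. Cst3 had a log2 fold change of -0.05 (-0.15 to 0.05), Crybb1 of 0.08 (-0.03 to 0.19) and Ltc4s of -0.21 (-0.35 to -0.07), and none of these passed (limma adjusted p = 0.735, 0.552 and 0.125). Sparc passed in this fit, at a log2 fold change of -0.23 (-0.35 to -0.12) and a ratio of 0.850 (limma adjusted p = 0.0298), where 2.58% of all genes tested were called, 1.76% higher and 0.82% lower. It was the single call among the 10 genes in that fit. Its log2 fold change over all 26 alternatives ran from -0.28 to -0.15 and its adjusted p from 0.0298 to 0.505. Olfml3 was -0.26 in the fit with the covariate (limma adjusted p = 0.182).

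The trio and Olfml3 are shown by the sequence just upstream of their annotated starts, to set the promoters of genes that vary together beside that of a gene with a larger age difference. The stretches are from RefSeq promoters on GRCm38.p6, on the gene's own strand and 5′ to 3′, and lie upstream of every annotated exon of the gene. Capitals mark GAGGAA, the core of the PU.1 site, or GGAAGT, a general ETS factor site, searched on both strands. Both hold the letters GGAA and can overlap.
Cst3 promoter, chr2:148875693-148875762, minus strand: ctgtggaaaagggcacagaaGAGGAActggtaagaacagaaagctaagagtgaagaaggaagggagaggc
Crybb1 promoter, chr5:112255570-112255814, plus strand: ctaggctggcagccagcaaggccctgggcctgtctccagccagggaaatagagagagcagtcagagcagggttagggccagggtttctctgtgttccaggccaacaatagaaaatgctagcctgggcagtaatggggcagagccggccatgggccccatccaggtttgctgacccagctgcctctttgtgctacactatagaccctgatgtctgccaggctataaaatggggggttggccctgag
Ltc4s promoter, chr11:50238617-50238782, minus strand: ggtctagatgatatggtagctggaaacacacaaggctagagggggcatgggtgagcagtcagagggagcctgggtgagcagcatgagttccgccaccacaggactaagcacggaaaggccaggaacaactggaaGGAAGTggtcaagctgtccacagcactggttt
Olfml3 promoter, chr3:103738002-103738251, minus strand: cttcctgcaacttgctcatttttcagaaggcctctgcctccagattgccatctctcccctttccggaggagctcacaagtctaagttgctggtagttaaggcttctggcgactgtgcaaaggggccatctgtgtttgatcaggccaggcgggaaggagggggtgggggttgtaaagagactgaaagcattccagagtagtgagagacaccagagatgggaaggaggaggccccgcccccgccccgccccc
Neither motif was shared by the trio in these stretches, with GAGGAA in Cst3, GGAAGT in Ltc4s and neither in Crybb1 or Olfml3. Promoters of 8 of the 10 genes were matched, and in the 250 bases before the start GAGGAA was found in 1 and GGAAGT in 4 of these (Golm1, Rnase4, Gpr84 and Ltc4s). Of 27025 mouse promoters, 23.1% held GAGGAA and 20.0% GGAAGT. A match is a run of letters and not a measured site.

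Some of the 10 genes share exon sequence with other genes, which unstranded reads cannot split. On GRCm38, Rnase4 lies on chromosome 14 at 51091077 to 51106151 and shares 219 exon bases with Ang, angiogenin, on the same strand. Ang had 1360 ± 252 normalized counts in aged and 1301 ± 210 in young samples (SD, n = 6 each; limma adjusted p = 0.938). Golm1, on chromosome 13 at 59634626 to 59675811, shares 1297 exon bases with Naa35 on the opposite strand. Gpr84 shares 681 bases with the antisense gene Gm49482 and Ltc4s shares 268 with Gm26542, neither of which has a row in the table. Values of these 4 genes are uncertain to that extent. Gpr84 lies on chromosome 15 at 103308235 to 103310612, Ltc4s on chromosome 11 at 50236461 to 50238616 and Sparc on the same chromosome at 55394500 to 55423183. Cst3 lies on chromosome 2 at 148871722 to 148875692, Olfml3 on chromosome 3 at 103722222 to 103738001 and Crybb1 on chromosome 5 at 112255815 to 112269585. All 10 are annotated as protein-coding. Tmem119 (chromosome 5, 113793729 to 113800516) and Selplg (113818536 to 113832644) lie on the minus strand with 18019 bases between them, which hold the annotated gene Gm19931. Their deviations had r = 0.71 (permutation p = 0.021, adjusted 0.094) and rho = 0.57 (permutation p = 0.072, adjusted 0.30), with r at 0.40 without aged 2 and young 6.

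Other identity genes were read in the same fit. Among 18 receptors and transcription factors of the microglial signature 0 were called higher and 1 lower, the Fc receptor-like gene Fcrls (log2 fold change -0.47, limma adjusted p = 0.000382), and the median was -0.11. In that list 5 of 18 intervals lay below 0 and 0 above. An interval that leaves out 0 matches an unadjusted limma p under 0.05, reached by 10.8% of all genes tested in either direction. Among 16 enzymes, transporters and secreted proteins 0 were called in either direction, with a median of -0.02. There 4 of 16 intervals lay below 0 and 2 above. Ecscr, the gene of smallest p there, had 6491 ± 753 normalized counts in aged and 7968 ± 634 in young samples (SD, n = 6 each; limma adjusted p = 0.0743), and it passed in 4 of 26 alternatives. These were the limma fits without aged 6 (adjusted p = 0.0138), without aged 5 and aged 6 (0.0299) and with the short-transcript covariate (0.0166), and DESeq2 on the 8 samples (0.00948). The lysosomal protease gene Ctss, at 195576 ± 11325 in aged and 176968 ± 10452 in young samples, and the tetraspanin gene Cd81, at 101585 ± 9532 in aged and 90844 ± 6360 in young samples, had intervals above 0 but did not pass (limma adjusted p = 0.409 and 0.438). Whether the lists differ from one another was not tested.

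**Figure D5:**
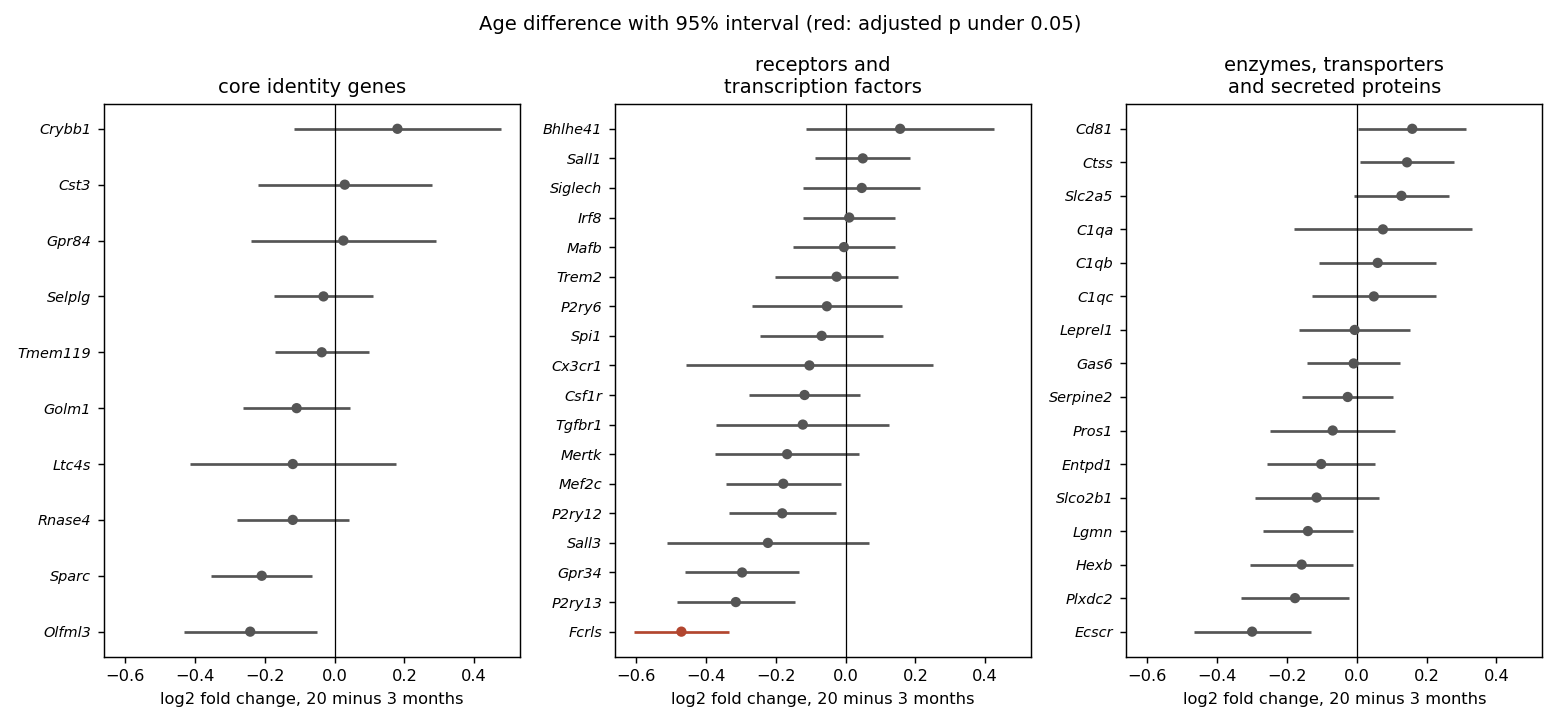
Log2 fold change (20 minus 3 months) with its 95% interval from the limma fit for the 10 core genes and for 18 receptors and transcription factors and 16 enzymes, transporters and secreted proteins of the microglial signature. Fcrls, in red at -0.47, is the only gene drawn here past an adjusted p of 0.05, and Olfml3 and Sparc are the core genes whose interval lies below 0.

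Genes that work with the 10 were read from lists of their pathways and families. Of the leukotriene pathway around Ltc4s 9 of 15 genes were tested and 0 called. Alox5, the 5-lipoxygenase, had 2341 ± 265 normalized counts in aged and 2086 ± 271 in young samples, and its activating protein Alox5ap had 4533 ± 607 in aged and 4394 ± 303 in young samples (SD, n = 6 each; limma adjusted p = 0.591 and 0.938). Lta4h, the hydrolase that competes for leukotriene A4, had 1622 ± 71.7 in aged and 1731 ± 168 in young samples (limma adjusted p = 0.795). Ggt5, which converts leukotriene C4 to D4, had the smallest p, at 1364 ± 113 in aged and 1609 ± 187 in young samples (limma adjusted p = 0.296). Of the enzymes and partners of PSGL-1 11 of 14 were tested and 0 called, with the selectins Selp and Sele at 0 in all samples. Vsir, the checkpoint receptor VISTA that binds PSGL-1, listed as 4632428N05Rik, was at 89452 ± 5497 in aged and 103391 ± 4764 in young samples (limma adjusted p = 0.109). Tpst2, which sulfates tyrosines, was at 12535 ± 1587 in aged and 14226 ± 1047 in young samples (limma adjusted p = 0.394).

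In the ribonuclease list around Rnase4 and the fatty acid receptor list around Gpr84, 1 gene each was called higher in aged samples. Rnase6, a ribonuclease of myeloid cells with antibacterial activity, had 718 ± 104.5 normalized counts in aged and 493 ± 56.0 in young samples, a 1.45-fold rise (SD, n = 6 each; limma adjusted p = 0.0195), the single call among 5 tested of 9 genes. That call was lost without aged 3, aged 4, young 2 or young 6 (limma adjusted p = 0.0608, 0.0524, 0.0557 and 0.0529) and on the 8 samples with 1 library with limma (0.1996) or edgeR (0.176). Hcar2, the receptor for nicotinic acid and ketone bodies, had 516 ± 246 in aged and 207 ± 49.0 in young samples, a 2.35-fold rise (limma adjusted p = 0.0130), the single call among 2 tested of 6 fatty acid receptor genes. The aged samples ranged from 302 to 947 and the young from 145 to 250 normalized counts in Hcar2, so the ages did not overlap. The call of Hcar2 was lost with no mean-variance trend (limma adjusted p = 0.0523) and with limma on the 8 samples (0.0593), and it held in all 12 fits that left out 1 sample. Whether these differences are unlike those of Rnase4 and Gpr84 was not tested.

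In the other families 0 genes were called. Of the cystatins and cysteine proteases 10 of 13 were tested, and Cst7, cystatin F, had 672 ± 397 normalized counts in aged and 306 ± 35.2 in young samples (limma adjusted p = 0.0992), with aged samples from 320 to 1321 and young samples from 256 to 347. Without aged 5 it passed (limma adjusted p = 0.0261). The SPARC family had 3 of 7 tested genes, with Smoc1 at 32.7 ± 24.8 in aged and 14.7 ± 13.8 in young samples (limma adjusted p = 0.609). The olfactomedin family also had 3 tested, of 8, with Olfm1 at 50.5 ± 15.1 in aged and 17.98 ± 14.0 in young samples (limma adjusted p = 0.0865), and it passed without young 3 (0.0355). Of 8 other crystallin genes 2 were tested, and 5, the lens crystallins Cryaa, Cryba1, Cryba2, Crybb2 and Crygs, were at 0 in all samples. Cryab was at 23.5 ± 8.39 in aged and 19.7 ± 6.92 in young samples (limma adjusted p = 0.894). Among 11 Golgi genes Golgb1, giantin, had the smallest p, at 544 ± 68.1 in aged and 429 ± 61.7 in young samples (limma adjusted p = 0.221).

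The 3 genes outside the group whose pattern over the 12 samples was most like that of Sparc, among 9482 genes, were Cct2, a chaperonin subunit, Slc3a2, an amino acid transporter chain, and Psma1, a proteasome subunit. Their root mean square difference from Sparc, each gene centred on its mean, was 0.05, 0.07 and 0.07 on the log2 scale. Their own log2 fold changes were -0.14, -0.15 and -0.11, and none passed (limma adjusted p = 0.599, 0.438 and 0.715).

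Depth and markers of other cells were compared once for all genes. Recovered depth was 24.2 to 31.6 M reads in 4 aged and 11.4 to 47.3 M reads in 4 young samples. The 6 microglial markers of the sort check summed to 49344 to 55213 CPM in aged and 54640 to 60390 CPM in young samples, with all 6 present in both. Their mean sum was lower in aged samples, at 51944 ± 2069 CPM against 57220 ± 2059 CPM in young samples (SD, n = 6 each). The overlap came from aged 1 with young 4, and this difference was not tested. Monocyte markers, 7 of 7 with a row and 0 of 4 tested called, summed to 4.94 to 6.17 CPM in aged and 2.41 to 4.82 CPM in young samples, with Ccr2 the most abundant. B cell markers, 5 of 5 with a row and 1 of 1 tested called lower, summed to 27.5 to 34.9 CPM in aged and 36.2 to 45.8 CPM in young samples. Both lists passed (exact two-sided permutation p = 0.00217 for each, the smallest possible, adjusted over 12 lists 0.0130). Without aged 1, 2, 4, 5 or 6 both had an adjusted p of 0.052 by the same exact test. The ages did not overlap in either sum, and they stayed apart whichever sample was left out. The lost pass therefore does not show that the difference came from a single sample. The B cell sum came mostly from Cd79b, a gene called lower in 14 of 26 alternatives, with Pax5 at 0 in all samples. The sums of the other 10 lists did not pass by that exact test (adjusted p from 0.225 to 0.879). Among single genes, 1 of 4 tested astrocyte markers and 1 of 3 tested neuron markers were called higher in aged samples, and 0 lower. Of all genes tested 1.27% were called higher. The log2 fold change was above 0 in 4 of the 4 astrocyte markers, with a median of 0.565. It was above 0 in only 1 of the 3 neuron markers, with a median of -0.665. Choroid plexus markers were highest in aged 5, at 131 CPM against 16.1 to 88.3 CPM in the other aged and 9.82 to 48.6 CPM in the young samples. The part of these cells in the values of the 10 genes was not tested.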

How the data were processed

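RNA of sorted hippocampal microglia was measured in 12 samples, 6 per age, from 16 libraries. Samples were grouped by their labels. The series' design text names bcl2fastq for demultiplexing, fastx_trimmer, STAR for alignment, SAMtools for the count matrix and DESeq2, and mm10 is the build given, per the submitters' processing notes. Which versions and gene models were used was not given in the sources used here.

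The authors deposited a single table of normalized counts (a signal of 0 or above for each gene) with 1 column per sample. In the 8 samples with 1 library, 100% of values were whole multiples of 1 step within 0.1 read, and whole reads were recovered, 11.4 to 47.3 M. The 4 columns that combine 2 libraries (young 2, young 4, aged 3 and aged 6) were not recovered. Counting errors cover counting only. Of the rows 27 are named as dates, and 2 names are repeated.

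No further scaling was applied. Genes with at least 10 normalized counts in at least 6 samples (11579) were tested with limma 3.58.1 in R 4.3.3 (mean-variance trend, log2 of the value plus a pseudocount of 1, Benjamini-Hochberg over all genes, threshold 0.05). Fold changes are on that scale, which understates changes of low genes. Adjusted p-values given for a gene are from this limma fit where no other is named. Single values per sample were compared by exact permutation over 924 assignments. Alternatives were pseudocounts, filters, scalings, variance models, a block for the sample number, samples left out, and edgeR 4.0.16 and DESeq2 1.42.0 on reads of the 8 samples, where edgeR called 91 and DESeq2 235 genes. Transcript lengths are of GENCODE M21, found for 95.2% of genes tested.

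The 10 genes and the lists were chosen with earlier results of these data known, as was the rule for named genes: all 10 genes, from each related list every gene called or else that of smallest p, from marker lists the most abundant, and the 3 genes most like the core gene of smallest p. Other genes were named as partners or for their values after these were seen.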

Additional observations from a re-analysis of the deposited data

Results flagged for a closer look

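In 46 groups of 6 samples, 5 held a sample whose gap to the nearest other divided by the group's range exceeded Dixon's 95% critical value, and chance flags about 1 group in 20. Golm1 stood at 76933 normalized counts in aged 5, with the next aged sample at 61188. Gpr84 stood at 10680 normalized counts in aged 4, with the next at 7558. Neutrophil markers summed to 10.2 CPM in aged 4 and to 1.44 CPM in the next aged sample. Markers of T and NK cells summed to 0.495 CPM in aged 5, with the next aged sample at 0.153. Markers of macrophages at the brain's borders were lowest in young 3, at 552.6 CPM, with the next young sample at 689 CPM.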

How the results depend on the processing

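Of the 10 genes 0 were called in either direction in 25 of 26 alternatives, edgeR and DESeq2 on recovered reads included, and in the fit with the short-transcript level 1 was called lower, Sparc, at -0.23 on the log2 scale. That fit called 95 of all genes lower, against 53 without it. All genes called came to 67 higher and 11 lower with limma on the 8 samples with 1 library, 76 and 15 with edgeR, and 30 lower with the replicate block. The sample numbers did not pair the samples (correlations from -0.12 to 0.11). Leaving out 1 sample gave 102 to 175 higher and 27 to 60 lower (35 without aged 2, young 1 or young 4, 32 without young 2, 27 without young 5 and 30 without young 6). The log2 fold change of Cst3 turned negative on the 8 samples (-0.027 with limma, -0.0152 with edgeR and -0.0148 with DESeq2), with the covariate (-0.0488) and in some fits without 1 sample (-0.024 to 0.129). Alox5ap turned negative on the 8 samples (-0.0426 with limma, -0.0318 with edgeR and -0.0321 with DESeq2), with the covariate (-0.00552) and without aged 6 (-0.00772, with the other fits without 1 sample above 0, up to 0.101), and Ang on the 8 samples (-0.0112 with limma and -0.00254 with edgeR) and with the covariate (-0.0276). The value of Gpr84 ran from -0.0826 to 0.0888 and that of Ltc4s from -0.201 to 0.000259 without 1 sample. Marker lists past the exact test came to 0 to 2 without 1 sample, with 0 without aged 1, 2, 4, 5 or 6. The monocyte and B cell sums did not overlap between the ages in any of these subsets. Without 1 sample the difference between ages ran from -13.3 to 32.7 CPM for border macrophages, from -0.0508 to 0.0481 CPM for T and NK cells, from -3.26 to 55.3 CPM for the dissociation response, and from -10.3 to 1.63 M for recovered reads. The cause of these changes was not tested. The 10 genes had at least 1382 reads in each of the 8 samples with recovered reads, and depth was not tested against their values.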
